A study of Mus musculus with 6 samples.

Results

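Long-established targets of the microRNA miR-21 were examined in macrophages of the injured dorsal root ganglion (DRG). The 9 genes Pdcd4, Reck, Spry1, Spry2, Btg2, Timp3, Peli1, Tgfbr2 and Sesn1 were taken as a list of known targets. The rule itself uses no signal, but the list was chosen with earlier results of these data known. All 23 probe sets that the platform annotation gives to the 9 genes were taken from 45037 tested. Each of the 23 was assigned to a single gene, and none was removed for a low signal. The cells came from ganglia L4 and L5 ipsilateral to a spared nerve injury (SNI), an injury in which 2 of the 3 branches of the sciatic nerve are cut and the sural branch is left. They were sorted as F4/80+ CD11b+ cells 7 days after surgery. One group was miR-21 cKO, in which a conditional miR-21 allele is deleted by Cre under the Avil promoter, active in sensory neurons, and the other was WT littermates. Both groups carried the nerve injury and were male, 8 to 10 weeks old, and there was no sham group on the arrays. Whether the WT littermates carried a floxed allele or Cre, and how many mice made up a pool, are not given in the sources used here. Each group had 3 arrays from 3 pools collected independently. The macrophages of miR-21 cKO mice keep their own miR-21 gene, and the deletion could reach them through less miR-21 passed from neurons or by indirect routes. The study itself allows for direct or indirect action. In miR-21 cKO ganglia it reports miR-21 lowered but not absent, with fewer pro-inflammatory and more anti-inflammatory macrophages after injury. These routes and a changed mix of macrophages cannot be told apart on the arrays. The comparison asks whether less miR-21 from neurons goes with a higher signal of its targets.

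A microRNA guides the Argonaute complex to messenger RNAs, mainly by pairing of its seed, bases 2 to 8, with sites in the 3′ end of the message, which are then degraded or translated less. miR-21 is abundant in activated myeloid cells and in injured neurons, and its targets include brakes on growth factor signalling, on proliferation and on matrix breakdown. Lower miR-21 in a cell is thus commonly read from higher levels of such targets. The mouse sequences of the miR-21 family (RefSeq, GRCm38.p6) are shown because the seed defines the shared property of the 9 genes. Seeds are in capitals.
mmu-miR-21a-5p, the RNA deleted in neurons, at chr11:86584120-86584141 on the minus strand: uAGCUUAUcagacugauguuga
mmu-miR-21c, at chr8:128278188-128278208 on the minus strand: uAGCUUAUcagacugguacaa
mmu-miR-21b, at chr3:29636768-29636790 on the plus strand: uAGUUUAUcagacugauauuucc
The seed of miR-21a-5p is shared with miR-21c alone among 1679 mature mouse microRNAs in that table, and the seed of miR-21b has 6 of its 7 bases. The 7 bases that pair with the seed of miR-21a-5p read auaagcu in a target. Sites in the 9 messages were not searched here. The arrays do not measure mature microRNAs, so the level of miR-21 in these macrophages was not analysed here and the genotypes rest on the labels.

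Each probe set gives 1 linear MAS5 signal per array. The mean of every array, without the lowest and highest 2% of probe sets, was 500 as deposited. Spearman correlations across probe sets between arrays were 0.238 to 0.319 within WT and 0.211 to 0.240 within miR-21 cKO. Between arrays of different genotype they were 0.192 to 0.303, so arrays of the same genotype were not clearly more alike than the others. The background was the 95th percentile of the log2 means, over the 6 arrays, of 47 olfactory receptor (Olfr) probe sets, a signal of 1037. Of all probe sets, 4.95% had a log2 mean over it. Signals on single arrays passed it more often, for 16.42% (WT array 2) to 18.48% (WT array 3) of all probe sets. Of the 23 target probe sets, 3 to 7 were over it on a single array. Of the members, 1 probe set of Timp3 was over the background on all 6 arrays, 10 others on 1 to 3 arrays and 12 on none. Pdcd4 and Reck, each with a single probe set, were among those 12. Fold changes of the probe sets under the background describe the measured signals only. Binding differs between probe sets, so levels are compared within a probe set and not between genes.

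**Figure D1:**
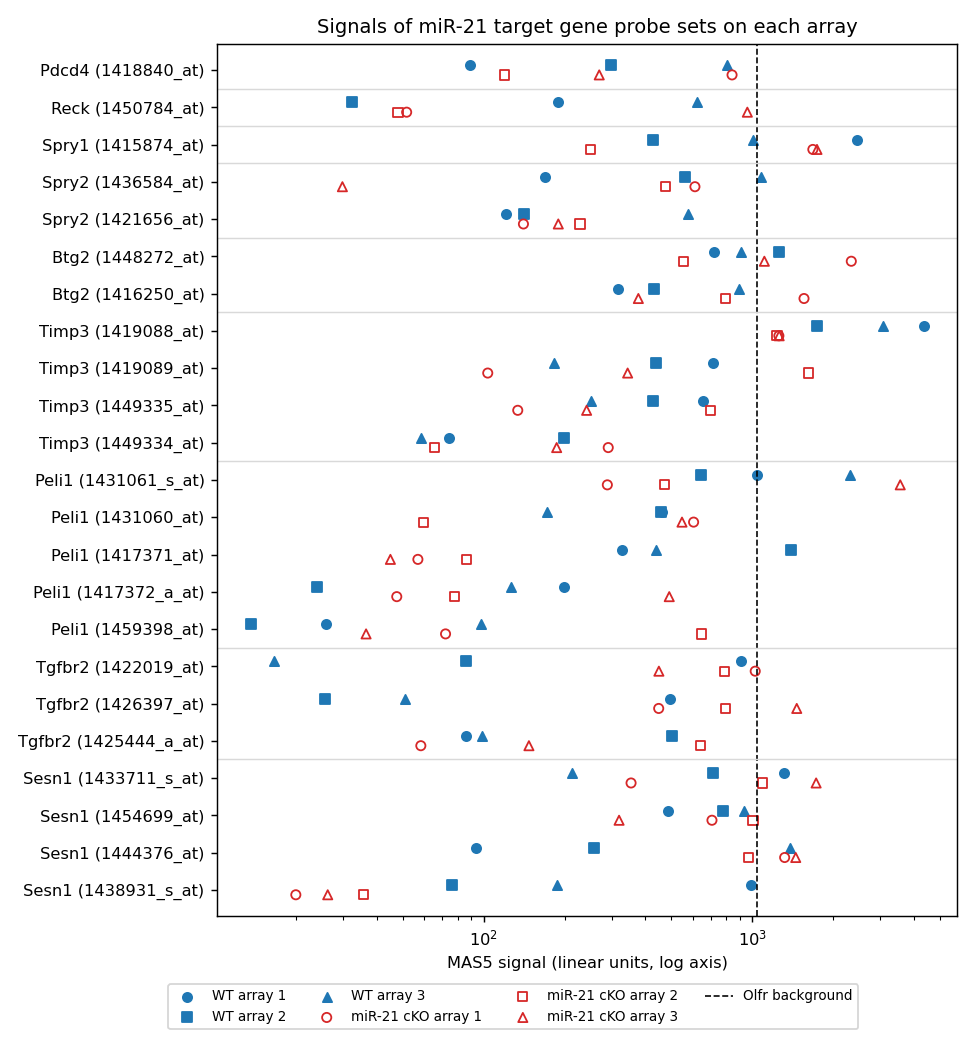
Signal of the 23 probe sets of the 9 miR-21 target genes on each array. The horizontal axis is the MAS5 signal on a log scale, filled blue symbols stand for WT and open red symbols for miR-21 cKO (3 arrays each, 1 shape per array number), with the Olfr background at 1037 dashed. The genotypes are apart, with miR-21 cKO lower, for 1419088_at of Timp3, 1417371_at of Peli1 and 1438931_s_at of Sesn1.

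The targets did not share a direction in macrophages of miR-21 cKO mice. Of the 23 probe sets, 12 had a higher and 11 a lower log2 mean in miR-21 cKO, where 48.9% of all probe sets tested were higher. Their median log2 difference, miR-21 cKO minus WT, was 0.0044, against -0.033 over all probe sets, and the range was -3.28 for Peli1 to 3.22 for Tgfbr2. The study's filter was a 2-fold change with p below 0.05, and as no adjustment is stated, the p was taken as unadjusted. On these terms 1 probe set was called higher by limma, 1426397_at of Tgfbr2, where the background of such calls was 2.11%. There were 2 called lower, 1417371_at of Peli1 and 1438931_s_at of Sesn1, where the background was 2.4%. In either direction 3 of the 23 were called, and 4.51% of all probe sets. None of the 23 passed an adjusted p under 0.05 from limma, with 0.9999 as the smallest, where 0.0222% of all probe sets did, and 3 of the 23 had an unadjusted p under 0.05. The methods' t-test, a test that the study names for other data and not for its arrays, with equal variance and run on each probe set by itself, called 0 higher (background 2.41%) and 3 lower (background 2.53%). These were the same probe sets of Peli1 and Sesn1 with 1419088_at of Timp3, and none passed after adjustment (smallest adjusted p = 0.694).

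No probe set had all miR-21 cKO arrays over all WT arrays, where 4.74% of all probe sets did. In 3 of the 23 all miR-21 cKO arrays were under all WT arrays, where 5.07% of all probe sets were (9.81% in either direction). A shift of at least 2-fold, with no test, was present in 4 probe sets upward (20.8% of all probe sets) and 4 downward (22.6%). The remaining 15 differed by less than 2-fold. Standard errors were 0.80 to 1.51 on the log2 scale, with a median of 1.32. The 95% intervals of 16 of the 23 held both a 2-fold rise and a 2-fold fall, where those of 76.1% of all probe sets did. Intervals of 20 held 0, and those of 20 held a 1.5-fold rise, so that a rise of this size in most members was not detectable with 3 arrays in each group. The 3 whose intervals lay under a 1.5-fold rise were 1419088_at of Timp3, 1417371_at of Peli1 and 1438931_s_at of Sesn1.

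**Figure D2:**
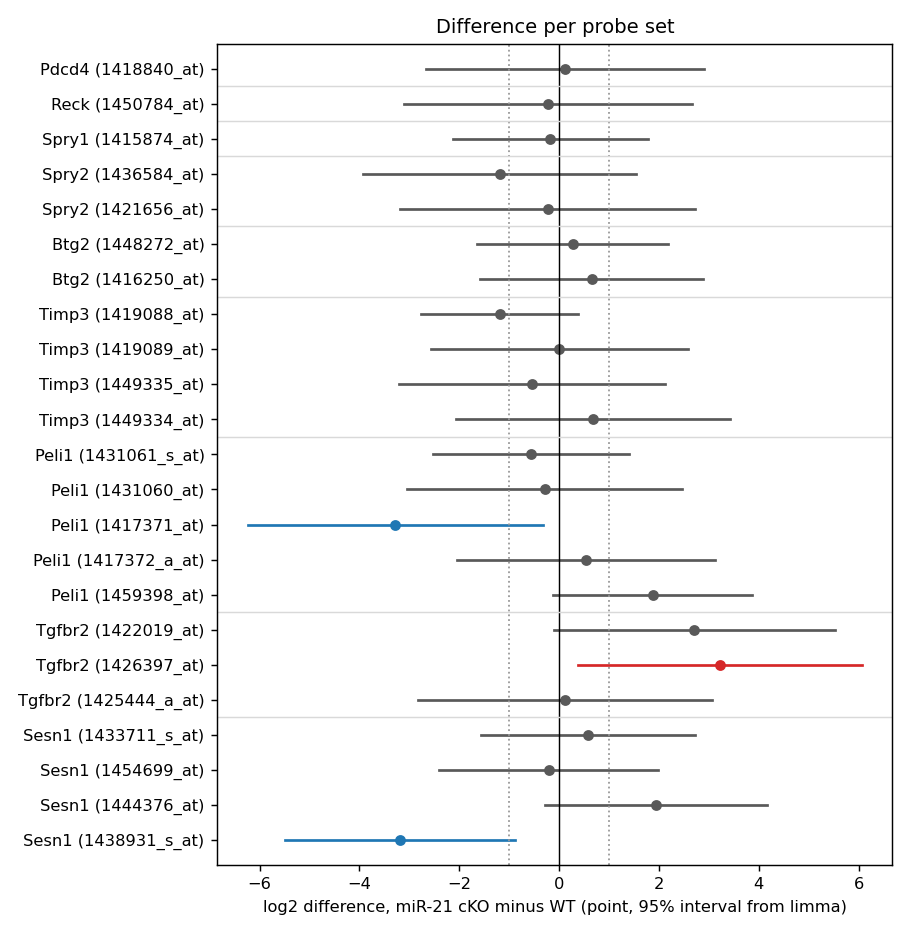
Difference between genotypes for each of the 23 probe sets. The horizontal axis is the log2 difference, miR-21 cKO minus WT, points are limma estimates, lines are 95% intervals, dotted lines mark 2-fold, and red or blue marks a probe set called higher or lower. The intervals of 20 of the 23 probe sets include 0.

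**Figure D3:**
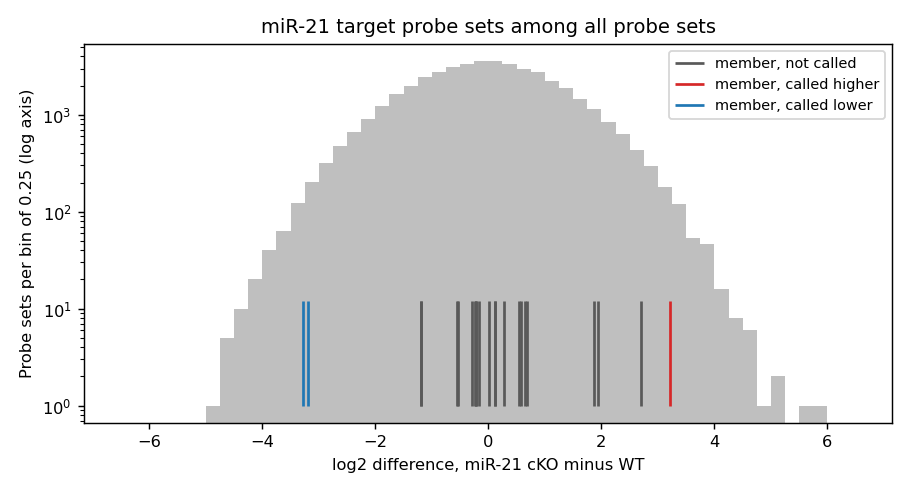
The 23 member probe sets among all 45037. Grey bars count probe sets in bins of 0.25 of the log2 difference, miR-21 cKO minus WT, on a log vertical axis, and upright lines mark the members, whose height carries no value (red called higher, blue called lower, dark grey not called). Members lie on both sides of 0, from -3.28 to 3.22, inside the range of all probe sets.

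Tgfbr2 encodes the type II receptor of transforming growth factor beta (TGF-beta), which binds the ligand and activates the type I receptor. Its probe set 1426397_at had signals of 494, 25.6 and 50.8 in WT and of 448, 792 and 1464 in miR-21 cKO. WT arrays 2 and 3 were low, while WT array 1 lay over miR-21 cKO array 1, so that the genotypes overlapped. WT had a mean signal of 190.3 ± 264 (SD, n = 3), and miR-21 cKO one of 901 ± 517 (SD, n = 3). The log2 difference was 3.22 with a standard error of 1.45 (adjusted p = 0.9999 from limma), with p = 0.2 (exact permutation test, two-sided). A second probe set, 1422019_at, also had WT array 1 bright and WT arrays 2 and 3 dim, though its miR-21 cKO arrays were in the opposite order, with 907, 85.9 and 16.6 in WT and 1025, 786 and 449 in miR-21 cKO. Its log2 difference of 2.71 (95% interval -0.098 to 5.52) was not called. In the third, 1425444_a_at, the difference was 0.13 (95% interval -2.82 to 3.07), with WT array 2 and miR-21 cKO array 2 the bright ones. Tgfbr2 was the 1 gene with over 2 probe sets whose probe sets all had 1 sign. The call of 1426397_at was lost on leaving out WT array 2 (2.34) or 3 (2.84) or miR-21 cKO array 2 (3.23) or 3 (2.79), in the methods' t-test (unadjusted p = 0.080, with equal variance), with signals floored at the 25th percentile (2.295), and for the mean of the 3 probe sets (2.02). All signals of these probe sets but 1 were under the Olfr background. Glial markers, of which 7 of 9 were measured, summed to signals of 2505 to 4524 on WT and 4646 to 7123 on miR-21 cKO arrays, without overlap. Singly, 6 of them were higher and 1 lower in miR-21 cKO, from 1.82 for Mbp to -2.63 for Pmp22 on the log2 scale. The genotypes of each overlapped, 0 were called and 0 had a log2 mean over the Olfr background. The part of glial markers in the Tgfbr2 difference was not tested.

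Spry1 and Spry2, the Sprouty proteins, are feedback inhibitors of receptor tyrosine kinase signalling to ERK, and Spry2 is the target that the study itself assayed in cultured macrophages. Spry2 had no probe set with a higher log2 mean in miR-21 cKO. Probe set 1436584_at had signals of 169, 562 and 1074 in WT and of 612, 474 and 29.8 in miR-21 cKO. The genotypes overlapped, with miR-21 cKO array 3 far under the rest. The log2 difference was -1.19 (95% interval -3.92 to 1.55), against 0.21 once the dim array 3 of miR-21 cKO was left out. For 1421656_at of Spry2 the signals were 121, 141 and 577 in WT and 141, 228 and 189.5 in miR-21 cKO, a log2 difference of -0.23 (95% interval -3.18 to 2.72). Here WT array 3 alone was bright. Spry1 had signals of 2448, 428 and 1004.5 in WT and of 1680.4, 251 and 1741 in miR-21 cKO. Array 2 was the dim one in each genotype and the ranges overlapped, and 3 of the 6 signals were over the Olfr background. The log2 difference of Spry1 was -0.17 (95% interval -2.13 to 1.78), which became 0.46 when WT array 1 was left out and 0.75 when miR-21 cKO array 2 was.

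Pdcd4 holds back translation by binding the RNA helicase eIF4A and is among the most used readouts of miR-21. Its probe set 1418840_at had signals of 89.3, 297 and 804 in WT and of 841, 119.7 and 269 in miR-21 cKO. The genotypes covered nearly the same range. WT averaged 397 ± 368 (SD, n = 3) and miR-21 cKO 409.9 ± 380.5 (SD, n = 3). The log2 difference was 0.12 (95% interval -2.67 to 2.90), and its sign turned when array 1 of WT (-0.70) or of miR-21 cKO (-0.63) was left out.

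Btg2, which slows the cell cycle and recruits the deadenylase that shortens poly-A tails, was the gene other than Tgfbr2 whose several probe sets were all higher in miR-21 cKO. Probe set 1448272_at had signals of 717, 1260.4 and 905 in WT and of 2337, 555 and 1109 in miR-21 cKO. miR-21 cKO array 1 was the brightest and array 2 the dimmest, so that WT lay inside the miR-21 cKO range. Its log2 difference was 0.27 (95% interval -1.64 to 2.18), with -0.25 without miR-21 cKO array 1. The difference of 1416250_at, on which miR-21 cKO array 1 was again the brightest with 1558, was 0.65 (95% interval -1.59 to 2.88). Neither probe set was called.

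Sesn1, a sestrin that restrains the growth kinase complex mTORC1, had 4 probe sets that disagreed. Probe set 1438931_s_at had signals of 987, 76.1 and 188 in WT and of 19.98, 35.6 and 26.3 in miR-21 cKO. All WT arrays were brighter than all miR-21 cKO arrays, and all 6 signals were under the Olfr background. The log2 difference was -3.19 with a standard error of 1.18 (adjusted p = 0.9999 from limma). Its exact permutation p was 0.1 (two-sided), which no comparison of 3 with 3 arrays can go below. The call held without each of the 6 arrays in turn, from -4.02 to -2.17, and was lost with signals floored at the 25th percentile (-1.46). Probe set 1444376_at went the other way, with 93.3, 257 and 1378 in WT and 1319.7, 965 and 1451 in miR-21 cKO. WT array 3 reached into the miR-21 cKO range, and WT arrays 1 and 2 were low. Its log2 difference of 1.94 (95% interval -0.29 to 4.16) was not called, and without WT array 3 it was 2.99 and called. The other pair of Sesn1 probe sets had differences of 0.58 and -0.21. With the mean of all 4 the Sesn1 difference was -0.22 (standard error 0.77).

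Timp3 inhibits metalloproteinases and is held in the matrix, and Reck inhibits them from the cell surface. Probe set 1419088_at of Timp3, the 1 member over the Olfr background on every array, had signals of 4350.1, 1748 and 3070.3 in WT and of 1256, 1235 and 1259 in miR-21 cKO. Every miR-21 cKO array lay under every WT array, and the miR-21 cKO arrays differed little among themselves. WT averaged 3056 ± 1301 (SD, n = 3) and miR-21 cKO 1250.1 ± 12.9 (SD, n = 3). The log2 difference was -1.19 (95% interval -2.76 to 0.37), which limma did not call and the methods' t-test did (unadjusted p = 0.036, with equal variance). Its two-sided p was 0.1 in the exact permutation test. Without 1 array the difference stayed between -1.55 and -0.89. The other 3 Timp3 probe sets, dimmer and with genotypes that overlapped, had differences of -0.54, 0.0044 and 0.68. Fibroblast markers, which mark cells that make much Timp3, summed over 8 of 8 genes to signals of 5418 to 6963 on WT and 3893 to 4924 on miR-21 cKO arrays, without overlap. Singly, 4 of them were higher and 4 lower in miR-21 cKO, from 1.24 for Col3a1 to -2.89 for Mgp on the log2 scale. Mgp was the 1 called, as lower, where 2.64% of all genes were. Endothelial markers summed to 3472 to 8653 and 4314 to 5494 over 8 of 8 genes. Of these, 3 were higher and 5 lower in miR-21 cKO. Eng (-2.305 on the log2 scale, with overlap) was the 1 called, also as lower, against the same 2.64%. The part of fibroblast and endothelial markers in the Timp3 difference was not tested. Fewer cells of a type cannot be told apart from less RNA per cell in such pools. Reck had signals of 189, 32.3 and 623 in WT and of 51.7, 48.0 and 958 in miR-21 cKO. Array 3 was the bright one in each genotype, and the log2 difference was -0.23 (95% interval -3.11 to 2.65). Its sign turned on leaving out WT array 3 (0.77) or miR-21 cKO array 1 (0.46) or 2 (0.51).

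Peli1 encodes Pellino1, a ubiquitin ligase of Toll-like receptor and interleukin-1 receptor signalling, and had 5 probe sets. Probe set 1417371_at had signals of 328, 1397 and 438 in WT and of 56.9, 86.1 and 44.9 in miR-21 cKO. All WT arrays were brighter, though WT array 2 alone was over the Olfr background. The log2 difference was -3.28 with a standard error of 1.51 (adjusted p = 0.9999 from limma, and p = 0.1 in the exact permutation test, two-sided). Its call was lost on leaving out WT array 2 (-2.65) or miR-21 cKO array 1 (-3.24) or 3 (-3.07). The brightest Peli1 probe set, 1431061_s_at, had 1045, 645 and 2302 in WT and 289, 471 and 3554 in miR-21 cKO. Array 3 was the brightest in each genotype and the groups overlapped, with a log2 difference of -0.56 (95% interval -2.52 to 1.40) that was 0.16 without miR-21 cKO array 1. The third lower one, 1431060_at, had -0.29. Of the 2 higher ones, 1417372_a_at had 0.54 and 1459398_at had 1.88, with 648 on miR-21 cKO array 2 and 13.6 to 97.9 on the rest.

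Probe sets of the same target gene often pointed in different directions. Of 6 genes with several probe sets, 3 had 1 sign throughout (Spry2 lower, Btg2 and Tgfbr2 higher) and 3 had both signs (Timp3, Peli1 and Sesn1). Of the 27 pairs of probe sets of 1 member gene, 13 or 48.1% shared their sign, and the median gap within a pair was 1.36 on the log2 scale. Over all genes, 50.6% of 30372 such pairs shared their sign, with a median gap of 1.21. The 4 Timp3 probe sets come from 1 source sequence, yet their differences ran from -1.19 to 0.68. The same held for the Peli1 probe sets 1417371_at and 1417372_a_at, with -3.28 and 0.54. Among all pairs with 1 gene and 1 source sequence, 50.2% of 5219 shared their sign. Where both probe sets of a pair had a log2 mean over the Olfr background, 75 of 123 pairs, 61.0%, shared their sign with a median gap of 0.63. Pairs from 1 gene overlap and are no independent replicates, and these shares describe the arrays.

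With 1 probe set for each gene, the one with the highest mean signal, 4 of the 9 targets were higher and 5 lower, where 48.4% of 18193 genes were higher. The median log2 difference was -0.17, against -0.046 over all genes. Tgfbr2 was the 1 gene called, where 4.92% of all genes were. That call depends on choosing by linear signal, to which the 1464 of 1426397_at on miR-21 cKO array 3 adds much. By log2 mean 1422019_at of Tgfbr2 was brighter (8.12 against 8.04), and it was not called. For Sesn1, 1433711_s_at was brighter by log2 mean than 1444376_at (9.48 against 9.29), with differences of 0.58 and 1.94. On the single arrays the median signal of the 23 probe sets was 463, 428 and 438 in WT and 354, 555 and 377 in miR-21 cKO. The WT values lay inside the miR-21 cKO range. Without miR-21 cKO array 2, on which the median member signal was highest, the median log2 difference over the 23 was 0.51. It was -0.058 to 0.15 without any other single array.

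**Figure D4:**
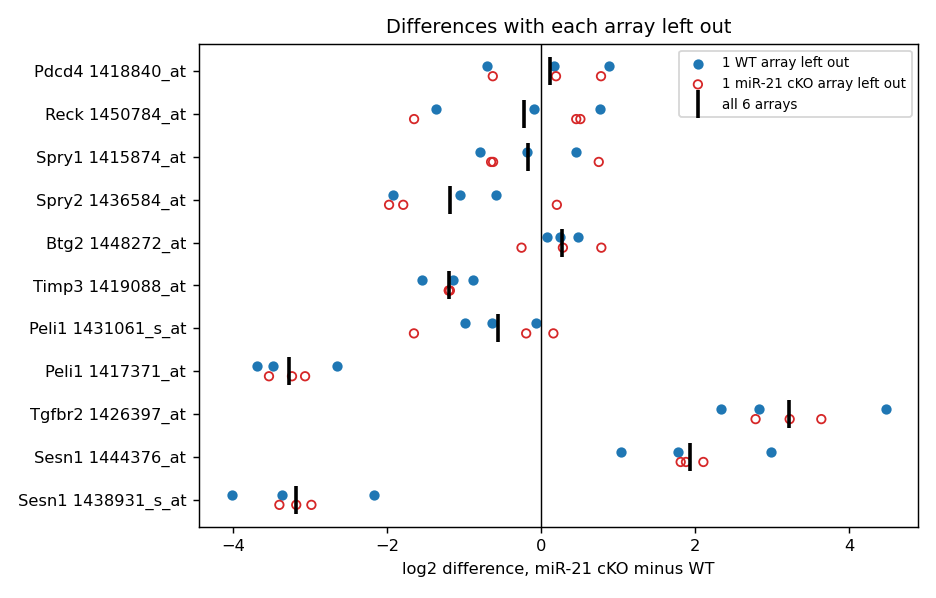
Log2 difference of the brightest probe set of each target and of the called or non-overlapping ones when single arrays are left out. The horizontal axis is the log2 difference, miR-21 cKO minus WT, black bars are all 6 arrays, filled blue circles leave out 1 WT array and open red circles leave out 1 miR-21 cKO array. Pdcd4, Reck, Spry1, Spry2, Btg2 and the brightest Peli1 probe set cross 0, and Timp3, Tgfbr2, Sesn1 and 1417371_at of Peli1 do not.

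Of 55 genes that act with the 9 targets or are other reported miR-21 targets, 47 had a probe set of 1 named gene, and 23 of these were higher and 24 lower in miR-21 cKO by the brightest probe set. At the thresholds 3 were called higher, where the background was 2.28%, and 2 lower, where it was 2.64%. Together these 5 are 10.6% of the 47, and none passed an adjusted p from limma. The methods' t-test called 3 of the 47 higher (background 2.34%), Tob1, Adam10 and Timp1, and 2 lower (background 2.39%), Smad3 and Ppara. Timp1, Smad3 and Ppara are named here after their values were seen. Tob1, an antiproliferative relative of Btg2, had signals of 17.9, 53.8 and 31.4 in WT and 571, 1174 and 465 in miR-21 cKO. Its genotypes did not overlap, its log2 difference was 4.44 with a standard error of 1.47, and the call held without each of the 6 arrays in turn. Only the 1174 on miR-21 cKO array 2 was over the Olfr background, so this fold change describes the measured signals only. The other Tob1 probe set had -0.43. Of 3 measured Btg and Tob genes, Tob1 was the 1 called.

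Among 8 metalloproteinases, sheddases and Timp relatives of Reck and Timp3, the sheddases Adam10 and Adam17 were called higher, and the inhibitor Timp2 lower. Adam10 had signals of 98.3, 374 and 184.5 in WT and 1844, 1349 and 735 in miR-21 cKO, without overlap. Its log2 difference was 2.69 (standard error 1.23), and its 4 probe sets ran from -1.66 to 2.69. That of Adam17 was 2.84 (standard error 1.27), with genotypes that overlapped and 3 probe sets from -1.85 to 2.84. For Timp2 the difference was -2.03 (standard error 0.97), and 5 of its 6 probe sets were lower. Of 5 Sprouty and Spred relatives, Spry4 was called lower, with 2135, 1501 and 1576 in WT and 343, 138 and 1513 in miR-21 cKO. miR-21 cKO array 3 reached the WT range, and the log2 difference was -2.05 (standard error 1.04). Of its 4 probe sets 2 were higher and 2 lower, from -3.47 to 1.33. The called probe sets of Adam10 and Adam17 were over the Olfr background on 2 arrays each, all miR-21 cKO. Those of Timp2 and Spry4 were over it on 4 each, 3 WT and 1 miR-21 cKO. The methods' t-test did not call Adam17 (unadjusted p = 0.122), Timp2 (0.145) or Spry4 (0.115), all with equal variance. None of the calls of Adam10, Adam17, Timp2 and Spry4 held in all 6 fits without 1 array. The Adam10 call was lost without WT array 1, miR-21 cKO array 1 or array 2, that of Adam17 without WT array 2 or 3 or miR-21 cKO array 1 or 3, that of Timp2 without WT array 2 or miR-21 cKO array 1 or 3, and that of Spry4 without any array but miR-21 cKO array 3. Without 1 array their differences ran from 2.22 to 3.18, 1.80 to 4.17, -2.95 to -1.39 and -2.98 to -1.25.

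None was called by limma among 9 measured ligands, receptors and Smads of TGF-beta signalling, 4 partners of Peli1, the sestrins Sesn2 and Sesn3, and 3 translation partners of Pdcd4. In these lists the smallest unadjusted p from limma belonged to Tgfb2, a ligand of Tgfbr2, with a log2 difference of -1.47, to Myd88, an adaptor of Toll-like receptors, with 2.77, to Sesn2 with 1.69, and to Eif4a1, the helicase bound by Pdcd4, with 1.85. Sesn2 had signals of 686, 243 and 229 in WT and 957, 715 and 1896 in miR-21 cKO, without overlap. Of these, only the 1896 was over the Olfr background. Smad3, which carries the TGF-beta signal to the nucleus, had signals of 1123, 1033 and 1215 in WT and 605, 670.1 and 413 in miR-21 cKO. All its miR-21 cKO arrays were under all WT arrays, and its log2 difference was -1.02 (standard error 1.06). Of 13 measured genes among the other reported targets, 7 were higher, 6 lower and 0 called by limma, and the phosphatase Cdc25a had the smallest p with -2.02. Ppara, a nuclear receptor of lipid metabolism in that list, had signals of 2070, 2302 and 3223 in WT and 1059, 1070 and 1520 in miR-21 cKO. Its 6 signals were all over the Olfr background and its genotypes did not overlap, with a log2 difference of -1.05 (standard error 0.82). Further, 3 targets that the study names from these same samples, Acta2, Tpm1 and Zbtb20, had no call from limma by their brightest probe sets, and this choice is not independent of the samples. Acta2, a smooth muscle actin, had 433, 463 and 723.5 in WT and 909.7, 1655 and 1225 in miR-21 cKO, without overlap, a log2 difference of 1.22 (standard error 1.05). The methods' t-test called it (unadjusted p = 0.023, with equal variance), and its 3 probe sets ran from -0.89 to 1.22. Tpm1 had a log2 difference of 0.69 and Zbtb20 of -1.12, and neither test called these probe sets. Other probe sets of Tpm1 and Zbtb20 are not given here, so a call in one of those is not excluded.

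The label of the sort was checked against 16 macrophage markers, all measured. The sort marker Adgre1 (F4/80) was over the Olfr background on 5 arrays and Itgam (CD11b) on 1, and Cd68, Aif1, Ptprc and C1qa were over it on none. Itgam (2.50 on the log2 scale) and Cd14 (2.47) were called higher in miR-21 cKO, where 2.28% of all genes were, both with genotypes that overlapped. Summed signals of the 16 were 13920 to 21212 in WT and 9731 to 34675 in miR-21 cKO, which overlapped. Sensory neuron markers, 15 of 16 measured, summed to 13919 to 26830 in WT and 15430 to 24874 in miR-21 cKO. Singly, 8 of them were higher and 7 lower in miR-21 cKO. Nefl (2.97 on the log2 scale, with overlap) and Gal (3.84, without overlap) were called higher, where 2.28% of all genes were. Snap25 (-3.505, with overlap) was called lower, where 2.64% were. Prph was over the background on 6 arrays, Uchl1 and Nefl on 5, Tac1 on 4, and Avil, Trpv1, Scn9a, Scn10a, Nefm and P2rx3 on none. A log2 mean over the background was found for 3 neuron and 2 macrophage markers. Mast cell markers summed to 4280 to 5154 in WT and 2082 to 4934 in miR-21 cKO. Of these 7 genes, 6 were lower and 1 higher in miR-21 cKO. Fcer1a (-3.07) and Tpsab1 (-3.20) were called lower, where 2.64% of all genes were. Both were lower without overlap, where 5.07% of all probe sets were, and over the background on no array. Lymphoid markers summed to 5953 to 10566 in WT and 4782 to 7267 in miR-21 cKO, and neutrophil markers to 2330 to 3871 and 2753 to 3473.

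Over the 6 arrays, the profile of Spry2 (1436584_at) was most like those of Elk4, a transcription factor under ERK (Pearson r = 0.973, Spearman rho = 0.943), Bcar1 (r = 0.970, rho = 0.714) and Mtap (r = 0.963, rho = 0.943), among 1776 probe sets over the Olfr background. That of Pdcd4 was most like Ina, a neuronal intermediate filament (r = 0.987, rho = 1.00), Gm5802 (r = 0.960, rho = 0.886) and Ezh1 (r = 0.948, rho = 0.886). These are the highest of many correlations over 6 arrays and have no test.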

How the data were processed

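The authors amplified RNA of the sorted cells (WT Pico kit), used Affymetrix Mouse 430V2 arrays and computed MAS5 signals with Expression Console. Each deposited value is a linear intensity, 1 for each probe set and array. Precision is limited by there being 3 arrays in each group, and detection calls were not used. The 64 Affymetrix controls were left out of 45101 probe sets. Names came from the platform annotation, updated through Entrez genes of RefSeq GRCm38.p6.

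No pseudocount was added before taking log2. The genotypes were compared, as miR-21 cKO minus WT, by limma 3.58.1 run in R 4.3.3 (lmFit, eBayes with an intensity trend, Benjamini-Hochberg over 45037 probe sets). The prior degrees of freedom were infinite, so standard errors follow brightness rather than each probe set's own spread. The study's methods name no test for the arrays and no adjustment, so the methods' t-test (Student's, equal variance, named there for other data) was run on the same values beside limma. Exact permutation tests were two-sided. As a check of the code alone, the fits were run on simulated data with known changes and the same spread for every probe set, unlike the real signals. Python 3.11.15 and matplotlib 3.10.9 served for figures.

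The members and all gene lists were chosen with earlier results of these data known. Named are all members, called or non-overlapping member probe sets, the called genes of each pathway list or else the one with the smallest p, and the 3 genes most like Spry2 and Pdcd4. Alternatives were centring on the median, quantile normalization, signals floored at 94.3 (their 25th percentile), a filter at the median level, eBayes without trend, the t-test, a replicate block, leaving out each array and the mean of a gene's probe sets.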

Additional observations from a re-analysis of the deposited data

How the results depend on the processing

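With single arrays left out, 11 to 13 of the 23 target probe sets were higher in miR-21 cKO, 0 to 2 were called higher, 1 to 2 called lower and 0 passed an adjusted p. Of the 9 genes by their brightest probe set, 4 to 6 were higher and 0 to 1 called, and the median log2 difference over the 23 ran from -0.058 to 0.51. Log2 differences that changed sign ran from -0.70 to 0.88 for Pdcd4, from -1.65 to 0.77 for Reck, from -0.80 to 0.75 for Spry1, from -1.97 to 0.21 for Spry2, from -0.25 to 0.78 for Btg2 and from -1.65 to 0.16 for 1431061_s_at of Peli1. Quantile normalization gave 2 probe sets called higher. The floor gave 0 called higher, 1 called lower and 0 genes called. The filter, which kept 15 of the 23 probe sets and neither of those called lower, gave 0 called lower. The methods' t-test gave 0 called higher. When a gene's probe sets were averaged, 0 genes were called, and Sesn1 reversed to -0.22. The cause of these shifts was not tested.

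Same-numbered arrays did not deviate together (correlations -0.016, -0.018 and -0.033), and those of different number had correlations of -0.0031 to 0.020. With all of them this near 0, whether the numbers pair the samples cannot be decided from these values. With the replicate number as a block, 12 probe sets were higher, 1 was called higher, 2 lower and 0 passed an adjusted p. The median log2 difference was 0.0044 with that block, 4 genes were higher and 1 was called, and of the named genes Spry4 lost its call (-2.05).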
